A study of Mus musculus with 12 samples.

Results

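The 10 genes described here belong to the antioxidant response that the transcription factor NRF2 controls, and they are 10 of the 24480 genes listed for each library. They are Nfe2l2, which encodes NRF2, its inhibitor Keap1, and the target genes Nqo1, Cbr3, Gclc, Gclm, Slc7a11, Txnrd1, Srxn1 and Hmox1. The starting point was Cbr3, which was picked because its RNA was lower in YAP cells than in control cells both when YAP was silenced and when it was overexpressed. The other 9 genes were chosen by function, though with earlier results of these data known. The question was whether they also moved one way in both experiments. The values of Cbr3 in these contrasts are therefore given as a description without a test.

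The RNA came from E14Tg2a cells, a mouse embryonic stem cell (ESC) line, grown without feeder cells on gelatin in serum medium with leukemia inhibitory factor and the thiol reductant β-mercaptoethanol. In the knockdown experiment, cells transiently received Stealth siRNAs that silence Yap1 (YAP KD) or a negative control duplex (CTR KD). For overexpression, cells received wild-type mouse YAP driven by the CAG promoter of a plasmid (YAP OE) or a control plasmid (CTR OE), named as pCAG-GFP in the labels but as empty vector in the study. The same lipid reagent is described for siRNAs and plasmids, and the labels give 3 independent biological replicates in each of the 4 groups. All cells were one line transfected transiently, so each library averages cells with and without the siRNA or plasmid, and fewer cells making an RNA and less of that RNA per cell cannot be told apart.

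KEAP1 is the adaptor through which a CUL3 ubiquitin ligase marks NRF2 for degradation. Oxidants and electrophiles modify cysteines of KEAP1, after which NRF2 accumulates, pairs with a small MAF protein and binds antioxidant response elements in the DNA of its target genes. NRF2 is controlled mainly as a protein, so the level of Nfe2l2 mRNA is not a measure of NRF2 activity. YAP, the transcriptional coactivator silenced or overexpressed here, acts mostly through TEAD factors at the end of the Hippo pathway.

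Library depth ran from 42900000 to 57200000 expected counts, with 17611 to 18163 genes detected. Yap1 averaged 124.9 ± 9.16 CPM (read counts scaled to the normalized library size) in the controls and 56.5 ± 1.72 CPM in the silenced cells (SD, n = 3), and 133 ± 1.96 CPM in CTR OE against 259.8 ± 16.8 CPM in YAP OE, so the targeted gene moved as labelled in each experiment. The 7 ESC markers, Pou5f1, Sox2, Nanog, Zfp42, Esrrb, Klf4 and Tdgf1, summed to between 3710 and 3950 CPM in every library, and none was at 0 in all libraries of a group. Of all genes tested, edgeR called 5.49% on silencing and 2.13% on overexpression at an adjusted p under 0.05, and the median log2 fold change over all genes was 0.0058 and -0.0025. Fold changes are from edgeR with its quasi-likelihood test, and CPM values are normalized within each experiment.

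Cbr3 encodes a carbonyl reductase that uses NADPH to reduce carbonyl compounds. In the knockdown experiment it measured 17.2, 17.7 and 17.3 CPM in the CTR KD libraries and 13.6, 12.9 and 13.1 CPM in the YAP KD libraries. In the overexpression experiment it measured 13.3, 13.7 and 13.2 CPM in CTR OE and 10.7, 10.7 and 11.2 CPM in YAP OE. The groups did not overlap in either experiment, and replicates of a group lay within less than 1 CPM of each other. The log2 fold change was -0.40 (SE 0.052, 95% confidence interval -0.51 to -0.28) on silencing and -0.30 (SE 0.057, interval -0.42 to -0.18) on overexpression, which left 76.0% and 81.3% of the control level. Across all alternative settings and with each library left out in turn, these values stayed between -0.42 and -0.38 and between -0.33 and -0.29. These are the values on which Cbr3 was picked, so its intervals are not read as a test against 0 and may not hold the stated 95%. Of the 14521 genes tested in both experiments, 58 (0.399%) had all YAP libraries below all control libraries in both, as Cbr3 did.

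**Figure D1:**
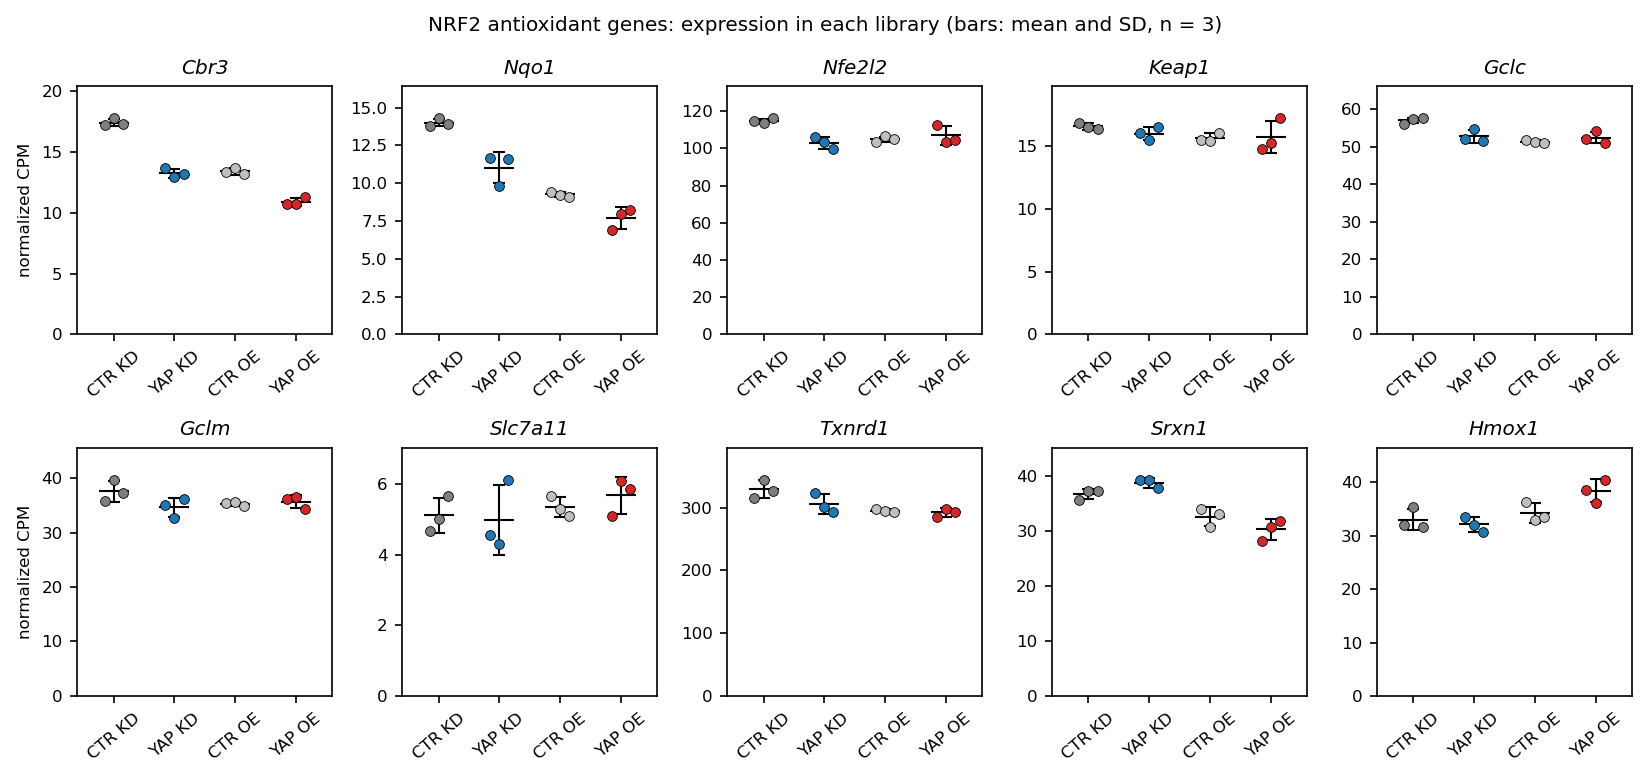
Normalized CPM (y axis, from 0, normalized within each experiment) of the 10 NRF2 genes in each library, with 3 points per group in the order of replicates 1 to 3 and bars for the mean and SD. Cbr3 and Nqo1 are the genes whose YAP libraries all lie below the controls in both experiments, from 17.4 to 13.2 and from 13.4 to 10.9 CPM on average for Cbr3.

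Cbr3 lies on chromosome 16 at 93683219 to 93690991 (GRCm38.p6, the build the authors call mm10). Its promoter window, from 250 bases before the start to 50 after it, is shown with those of Nqo1, the gene that moved most like it among the members, and of Nfe2l2, the regulator, because antioxidant response elements of NRF2 targets can lie near the start. The sequences are from RefSeq (GRCm38.p6), 5′ to 3′ on the strand of the gene, at chr16:93682969-93683268 (plus strand), chr8:107403156-107403455 (minus strand) and chr2:75704614-75704913 (minus strand), and capitals mark a match to the core of the antioxidant response element, TGACNNNGC, on either strand.
Cbr3: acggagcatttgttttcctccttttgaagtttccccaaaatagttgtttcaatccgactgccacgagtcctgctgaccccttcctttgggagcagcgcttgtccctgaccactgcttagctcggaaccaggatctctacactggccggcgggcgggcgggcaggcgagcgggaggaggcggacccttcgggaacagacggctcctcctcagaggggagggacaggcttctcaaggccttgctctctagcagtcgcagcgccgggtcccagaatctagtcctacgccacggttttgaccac
Nqo1: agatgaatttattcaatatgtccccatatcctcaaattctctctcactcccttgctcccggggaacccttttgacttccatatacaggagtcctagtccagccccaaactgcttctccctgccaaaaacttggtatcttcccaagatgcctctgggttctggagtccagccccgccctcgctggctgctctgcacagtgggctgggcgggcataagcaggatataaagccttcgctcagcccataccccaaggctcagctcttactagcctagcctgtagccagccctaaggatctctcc
Nfe2l2: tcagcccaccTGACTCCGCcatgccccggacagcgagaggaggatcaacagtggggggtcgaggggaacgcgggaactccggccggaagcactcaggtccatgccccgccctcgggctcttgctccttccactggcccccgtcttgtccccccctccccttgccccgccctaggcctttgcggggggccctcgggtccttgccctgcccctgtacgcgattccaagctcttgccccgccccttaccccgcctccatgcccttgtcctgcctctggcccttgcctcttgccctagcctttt

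A window was found for 8 of the 10 genes, 10 windows in all, with none for Hmox1 and Gclc. The core matched once in the Nfe2l2 window (TGACTCCGC, bases -240 to -232 from the start), once in that of Gclm (GCACCGTCA, -134 to -126, minus strand), once in 1 of the 3 windows of Txnrd1 (GCTTTGTCA, -92 to -84, minus strand) and once in that of Srxn1 (GCTAGGTCA, 28 to 36, minus strand). The windows of Cbr3, Nqo1, Keap1 and Slc7a11 held no match. Of all 32851 promoter windows in the table, 4071 (12.4%) held the core. The letters GGAATG, bound by TEAD factors and searched on both strands, were in 4817 windows (14.7%) and in none of the 10 windows of these genes. A match gives letters in this window only, and the distal elements of these genes were not examined.

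Nqo1 encodes a quinone reductase whose transcription is a common readout of NRF2, and it lies on chromosome 8 at 107388225 to 107403205. It measured 13.8, 14.3 and 13.9 CPM in CTR KD against 11.7, 9.83 and 11.6 CPM in YAP KD. It measured 9.44, 9.22 and 9.09 CPM in CTR OE and 6.88, 7.99 and 8.21 CPM in YAP OE. As with Cbr3, every YAP library lay below every control library of its experiment. On silencing, Nqo1 fell by 0.34 on the log2 scale (SE 0.073, interval -0.51 to -0.18, edgeR adjusted p = 0.0255), which left 78.8% of the control level. On overexpression the log2 fold change was -0.27 (SE 0.076, interval -0.43 to -0.10), with 83.2% of the control level left, and it did not pass the test (edgeR adjusted p = 0.0981, unadjusted p = 0.00327). The difference between the experiments, -0.08 (SE 0.11, interval -0.31 to 0.15), was not called either (edgeR adjusted p = 0.737).

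The call of Nqo1 on silencing rested on each of several libraries. It was lost without CTR KD replicate 3 (a change of -0.35 with edgeR adjusted p = 0.0919) and without YAP KD replicates 1, 2 or 3 (-0.39, -0.27 and -0.39, adjusted p = 0.054, 0.0881 and 0.0553). It held under 9 of the 10 alternative settings. On overexpression the value lay between -0.33 and -0.19 when a library was left out, and it was called under 1 of 10 alternatives, with no filter on low counts (edgeR adjusted p = 0.0361).

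**Figure D2:**
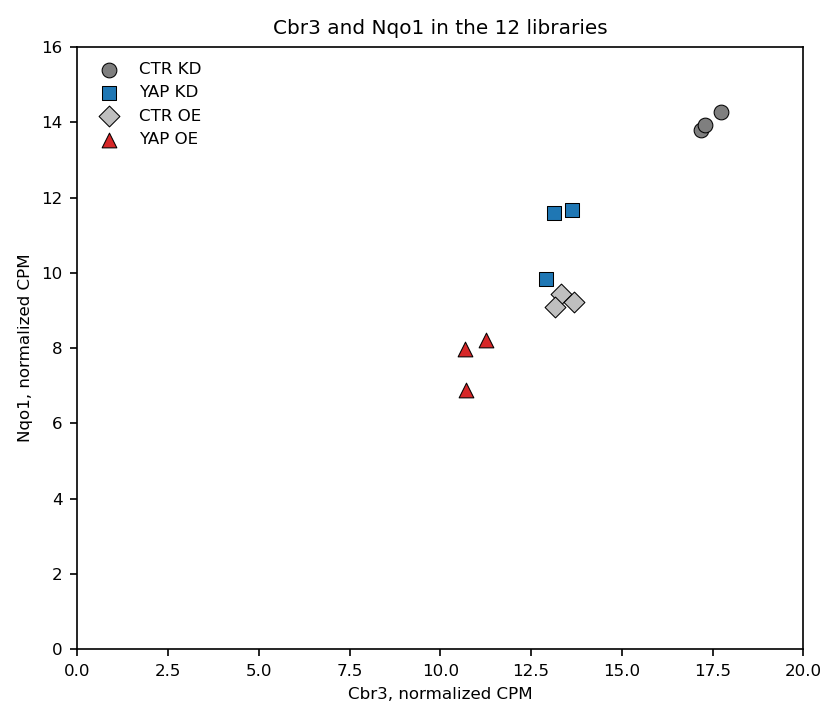
Nqo1 against Cbr3 in the 12 libraries, both in normalized CPM from 0, with 1 point per library and a symbol per group. Both genes are highest in CTR KD (Cbr3 17.2 to 17.7, Nqo1 13.8 to 14.3) and lowest in YAP OE (Cbr3 10.7 to 11.2, Nqo1 6.88 to 8.21), with YAP KD and CTR OE between them.

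Among the genes compared over the 12 libraries, after centring each experiment on its own mean, the 5 genes most like Cbr3 by Pearson correlation of log2(CPM + 0.5) were Shisa2 (r = 0.941), Schip1 (0.931), Nqo1 (0.921), Phlda2 (0.913) and Irs1 (0.904). Nqo1 was thus the third most like Cbr3. This likeness includes the group differences by which Cbr3 was picked. When each group was centred on its own mean, which leaves only the spread between replicates, the r between Nqo1 and Cbr3 was 0.612, at rank 1084 of the 12394 genes. The next member, Txnrd1, had r = 0.639 with experiments centred and 0.567 with groups centred. In the same order, r was 0.584 and 0.0424 for Nfe2l2, 0.487 and 0.226 for Gclm, 0.475 and -0.513 for Gclc, and 0.311 and 0.496 for Keap1. It was -0.212 and 0.563 for Hmox1, 0.0299 and 0.179 for Srxn1, and -0.0195 and 0.0651 for Slc7a11. The 12 points share libraries, depth and normalization.

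Nfe2l2 encodes NRF2 itself and had the second highest level per length of the 10 genes. It measured 114.5, 113.5 and 116.1 CPM in CTR KD against 106, 103.3 and 99.5 CPM in YAP KD, so that all YAP KD libraries lay lower. In the overexpression experiment the libraries overlapped, at 103.6, 106.4 and 104.9 CPM in CTR OE against 112.6, 103.6 and 104.7 CPM in YAP OE. The log2 fold change was -0.16 on silencing (SE 0.040, interval -0.25 to -0.07), with 89.7% left, which missed the threshold in edgeR (adjusted p = 0.0541), and 0.03 on overexpression (SE 0.041, interval -0.06 to 0.11, edgeR adjusted p = 0.846). The silencing value was called under 4 of 10 alternatives, among them a single fit over all 12 libraries (adjusted p = 0.0195), and without CTR KD replicate 2 (adjusted p = 0.0356).

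Nfe2l2 was the 1 gene of the 9 called as differing between silencing and overexpression, where 8.80% of all genes were (difference -0.19, SE 0.055, interval -0.30 to -0.07, edgeR adjusted p = 0.049). That call stood close to the threshold. It held under 5 of 9 alternatives and in 3 of the 12 fits with a library left out, those without CTR KD replicate 2, YAP KD replicate 1 and YAP OE replicate 2. The adjusted p lay between 0.0291 and 0.142 over all settings and the difference between -0.21 and -0.15. Hmox1 (-0.21, interval -0.38 to -0.03), Gclc (-0.14, -0.25 to -0.03) and Srxn1 (0.18, 0.03 to 0.33) also had intervals that excluded 0. These differences were not called (edgeR adjusted p between 0.116 and 0.147).

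Keap1, the inhibitor, stayed within a narrow range, with 16.9, 16.5 and 16.3 CPM in CTR KD against 16.04, 15.5 and 16.5 CPM in YAP KD. In CTR OE it measured 15.5, 15.4 and 16.1 CPM and in YAP OE 14.8, 15.2 and 17.2 CPM. The groups overlapped in both experiments. The log2 fold changes were -0.05 (SE 0.051, edgeR adjusted p = 0.668) and 0.0096 (SE 0.062, adjusted p = 0.9746), and the intervals reached from -0.16 to 0.07 and from -0.12 to 0.14.

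Gclc and Gclm encode the catalytic and the modifier subunit of glutamate-cysteine ligase, the rate-limiting enzyme of glutathione synthesis, and Slc7a11 encodes the cystine transporter that supplies it. Gclc measured 56.1, 57.4 and 57.6 CPM in CTR KD against 52.0, 54.7 and 51.6 CPM in YAP KD, so all YAP KD libraries lay below the controls. Its log2 fold change of -0.11 (SE 0.041, interval -0.20 to -0.02) was not called by edgeR (adjusted p = 0.163), and on overexpression it was 0.03 (SE 0.039, adjusted p = 0.841). Gclm measured 35.8, 39.7 and 37.3 CPM in CTR KD against 35.1, 32.7 and 36.2 CPM in YAP KD, and these groups overlapped. Its log2 fold changes were -0.12 (SE 0.055, edgeR adjusted p = 0.276) and 0.02 (SE 0.042, adjusted p = 0.922). The gene overlaps the long noncoding RNA Gm46822 and the pseudogene Gm6061, and the strand setting of the counting is not given in the sources used here.

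Slc7a11 was the least expressed of the 10 genes and the least precisely measured. It measured 4.67, 5.01 and 5.66 CPM in CTR KD against 4.56, 4.29 and 6.12 in YAP KD, and 5.67, 5.28 and 5.10 CPM in CTR OE against 5.09, 6.08 and 5.85 CPM in YAP OE. The groups overlapped in both experiments. Its log2 fold changes were -0.03 (SE 0.14, interval -0.33 to 0.28, edgeR adjusted p = 0.949) and 0.08 (SE 0.09, interval -0.11 to 0.28, adjusted p = 0.777). A change as large as that of Nqo1 lay just outside the lower bound on silencing. Its expected counts were not whole numbers in any library, so some of its reads were shared with other genes, whereas those of the other 9 genes were whole in all 12 libraries.

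Txnrd1, the cytosolic thioredoxin reductase, was the most abundant member. It measured 315.6, 344.0 and 327.0 CPM in CTR KD against 323.2, 301.2 and 292.3 CPM in YAP KD, and 297.4, 293.9 and 292.9 CPM in CTR OE against 284.7, 298.2 and 293.5 CPM in YAP OE. The groups overlapped in both experiments. The log2 fold changes were -0.11 (SE 0.05, edgeR adjusted p = 0.285) and -0.01 (SE 0.039, interval -0.10 to 0.07, adjusted p = 0.941). The gene overlaps Eid3 and the long noncoding RNA Gm38560.

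Srxn1, the sulfiredoxin that repairs overoxidized peroxiredoxins, was the 1 member that leaned upward on silencing, from 35.6, 37.3 and 37.2 CPM in CTR KD to 39.2, 39.2 and 37.7 CPM in YAP KD. All YAP KD libraries lay above the controls, as for 13.2% of all genes, but the log2 fold change of 0.08 (SE 0.043) was not called (edgeR adjusted p = 0.378). In the overexpression experiment it measured 33.9, 30.6 and 32.99 CPM in CTR OE and 28.2, 30.8 and 31.8 CPM in YAP OE, which overlapped, and its log2 value of -0.11 (SE 0.054) was not called by edgeR (adjusted p = 0.433). Hmox1, which encodes the haem-degrading enzyme haem oxygenase 1, measured 32.1, 35.3 and 31.6 CPM in CTR KD against 33.6, 32.1 and 30.8 CPM in YAP KD. It measured 36.3, 33.02 and 33.5 CPM in CTR OE against 38.6, 36.2 and 40.5 CPM in YAP OE. Both pairs of groups overlapped. The log2 fold changes of Hmox1 were -0.04 (SE 0.056, edgeR adjusted p = 0.765) and 0.17 (SE 0.051, interval 0.06 to 0.28, adjusted p = 0.133).

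**Figure D3:**
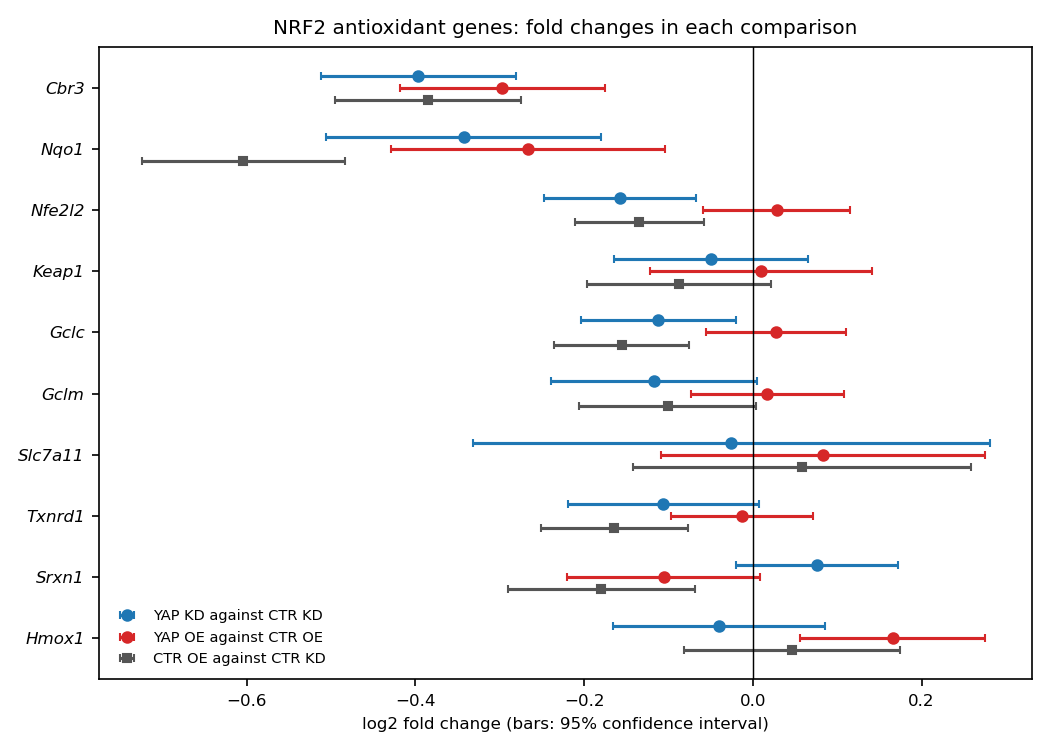
Log2 fold changes of the 10 genes (x axis) for silencing, overexpression and the comparison of the control groups, with 95% confidence intervals. The intervals of Cbr3 are not read as a test. Cbr3 and Nqo1 lie left of 0 in all 3 comparisons, with -0.40, -0.30 and -0.39 for Cbr3 and -0.34, -0.27 and -0.60 for Nqo1. The 3 comparisons share control libraries and are not independent.

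As a list, the 9 genes other than Cbr3 leaned lower on silencing and to neither side on overexpression. On silencing, 8 of the 9 had a negative log2 fold change with a median of -0.11, against 0.0058 over all genes, and 3 (Nqo1, Nfe2l2 and Gclc) had all YAP KD libraries below all CTR KD libraries, where 12.7% of all genes did. One gene of the 9, Nqo1, was called by edgeR, where 5.49% of all genes were called and 2.78% were called lower. Unadjusted p was under 0.05 for 3 of the 9, against 19.6% of all genes. On overexpression edgeR called 0 of the 9, as did DESeq2 and limma-voom, where 2.13% of all genes were called by edgeR. Unadjusted p was under 0.05 for 2 of them, Nqo1 (lower) and Hmox1 (higher), against 13.1% of all genes, and the median was 0.02 with 3 negative values. Nqo1 was the 1 gene of the 9 with all YAP OE libraries below all CTR OE libraries, where 7.80% of all genes were.

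Both log2 fold changes were negative for 2 of the 9, Nqo1 and Txnrd1, where 2833 of 14521 genes (19.5%) had this pattern. None of the 9 was called lower in both experiments by edgeR. Nqo1 was the 1 gene with all YAP libraries below all controls in both, against 0.399% of all genes.

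**Figure D4:**
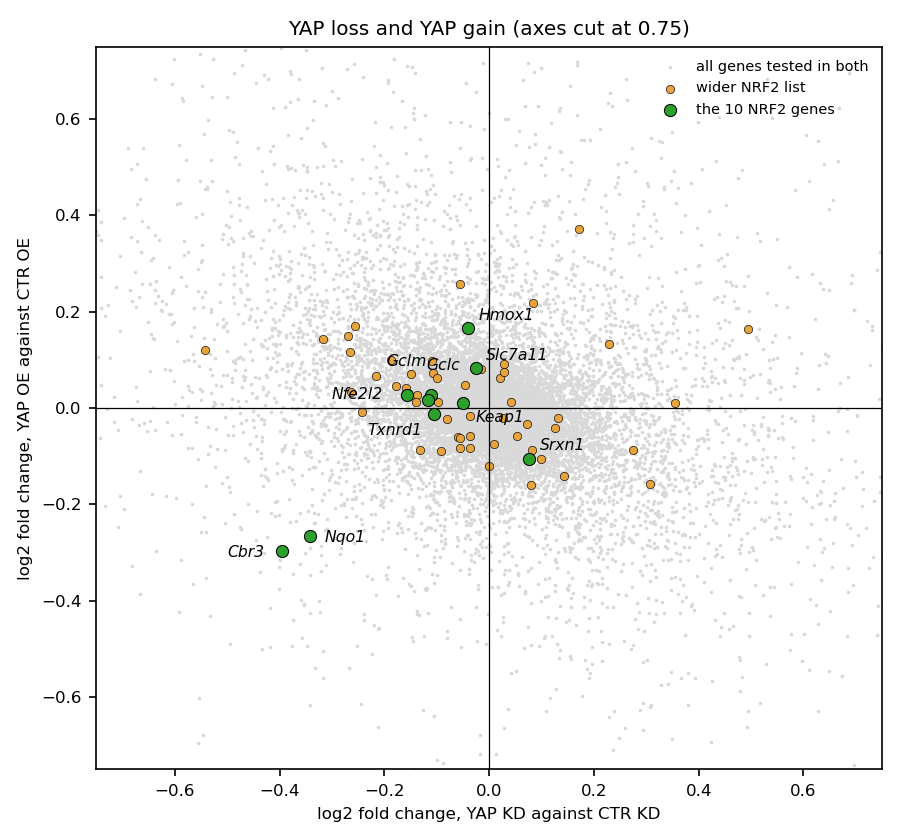
Log2 fold change on overexpression (y axis) against that on silencing (x axis) for all genes tested in both experiments (grey), the wider NRF2 list (orange) and the 10 NRF2 genes (green), with both axes cut at 0.75. Cbr3 (-0.40, -0.30) and Nqo1 (-0.34, -0.27) lie apart from the other 8 green points, which are all between -0.16 and 0.08 on the x axis.

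The control groups of the experiments also differed in these genes. This comparison was chosen after seeing the data, and in it the experiment, the kind of nucleic acid transfected and anything else that set the experiments apart cannot be told apart. Nqo1 was lower in CTR OE (9.22 ± 0.178 CPM) than in CTR KD (14.01 ± 0.255 CPM, SD, n = 3), by -0.60 on the log2 scale (SE 0.054, interval -0.72 to -0.48, edgeR adjusted p = 0.0015), where 0.278% of all genes were called lower. This call held under all 10 alternatives and with each of the 6 libraries left out (adjusted p at most 0.0181). Cbr3 had 13.3 ± 0.256 CPM in CTR OE and 17.4 ± 0.302 CPM in CTR KD, a log2 difference of -0.39 (SE 0.049, interval -0.50 to -0.28), given without a test because these are the control libraries of the contrasts on which it was picked. The difference of Nqo1 between the control groups was thus larger than that of either YAP contrast (-0.34 and -0.27). The sizes of these differences were not tested against each other. The comparison of the control groups uses the same control libraries as the YAP contrasts, so it is not independent of them for any gene.

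Of the 9 genes other than Cbr3, Nqo1 was the 1 called between the control groups. Nfe2l2 (-0.13), Gclc (-0.16), Txnrd1 (-0.16), Srxn1 (-0.18), Gclm (-0.10) and Keap1 (-0.09) had all CTR OE libraries below all CTR KD libraries, as Nqo1 did and as 8.15% of all genes did, without being called by edgeR (adjusted p between 0.112 and 0.606). Hmox1 (0.05) and Slc7a11 (0.06) overlapped. The median of the 9 was -0.13, against 0.0061 over all genes. The summed level of 6 trophoblast markers (Cdx2, Gata3, Eomes, Elf5, Krt8 and Krt18), carried by Krt8 and Krt18, stood in the opposite order to Nqo1 across the 4 groups. Cbr3 did not share the order of Nqo1, with means of 13.2 CPM in YAP KD and 13.4 CPM in CTR OE. The sum was 60.7 to 69.2 CPM in CTR KD, 77 to 78 in YAP KD, 97.1 to 107 in CTR OE and 123 to 151 in YAP OE, with none of the 6 at 0 in all libraries of a group. The other markers were low and did not all share that order, with Cdx2 at 0.154 and 0.156 CPM in CTR KD and YAP KD and at 0.149 and 0.631 CPM in CTR OE and YAP OE, and Eomes at 1.34 and 1.05 CPM and at 1.26 and 1.86 CPM in the same groups. Of these markers edgeR called 1 of 3 tested higher on silencing (Krt8, 0.37), where 2.71% of all genes were, while Eomes had a log2 fold change of -0.32 (SE 0.22) that was not called. On overexpression it called 4 of 5 higher (Cdx2, Gata3, Krt8 and Krt18), where 1.66% of all genes were. The sums of the 6 primitive endoderm markers (6.11 to 8.65 CPM over all libraries) and of the 5 fibroblast markers (1.88 to 3.09 CPM) were low throughout. The part of other cell types in the values of Nqo1 and Cbr3 was not tested.

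Per length, in TPM (transcripts scaled for length and library size), Txnrd1 stood highest over the 12 libraries (50.3 ± 3.61, SD), followed by Nfe2l2 (24.65 ± 2.23), Hmox1 (12.94 ± 1.404), Gclm (9.94 ± 0.962), Gclc (8.65 ± 0.783), Cbr3 (7.26 ± 1.27), Srxn1 (6.87 ± 0.75), Nqo1 (3.997 ± 0.934), Keap1 (2.53 ± 0.182) and Slc7a11 (0.307 ± 0.05). The ranges over libraries overlapped between each neighbouring pair from Hmox1 to Srxn1 and between Nqo1 and Keap1, and they did not overlap between the other neighbours. The TPM of Cbr3 was 9.10 ± 0.185 in CTR KD, 6.90 ± 0.746 in YAP KD, 7.13 ± 0.00577 in CTR OE and 5.92 ± 0.547 in YAP OE. The TPM of Nqo1 was 5.28 ± 0.114, 4.15 ± 0.654, 3.55 ± 0.085 and 3.01 ± 0.287 in the same groups. On this scale as well the YAP libraries of both genes lay below all control libraries of their experiment.

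Cbr3 has a close relative next to it on chromosome 16, Cbr1, a carbonyl reductase of broader substrate range, at 93607837 to 93610349. Cbr1 went from 21.8 ± 0.528 CPM in CTR KD to 19.8 ± 0.647 CPM with YAP silenced, and its log2 change of -0.14 (SE 0.049) was not called by edgeR (adjusted p = 0.151), and its log2 fold change on overexpression was 0.03 (SE 0.056, adjusted p = 0.904). The other neighbours tested, Setd4 (-0.12 and 0.0020) and Dop1b, listed as Dopey2 (0.02 and 0.01), were not called either by edgeR (adjusted p between 0.366 and 0.996).

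A wider list of 61 other genes of the NRF2 pathway was read in the same way. On silencing 55 of them were tested and 5 were called by edgeR, 9.09% against 5.49% of all genes. The unadjusted edgeR p was under 0.05 for 23 of the 55, against 19.6% of all genes. All YAP KD libraries lay below all CTR KD libraries for 15 and above them for 8, against 12.7% and 13.2% of all genes. Those called lower, where 2.78% of all genes were, were Gpx2, a glutathione peroxidase (3.32 to 2.29 CPM, a change of -0.54 in log2, SE 0.11, edgeR adjusted p = 0.0237), Blvrb, a biliverdin reductase (24.4 to 20.7 CPM, -0.24, SE 0.052, adjusted p = 0.0262), and Abcc5, an efflux transporter (80.9 to 69.6 CPM, -0.22, SE 0.047, adjusted p = 0.0279). Those called higher, where 2.71% of all genes were, were Aldh3a1, an aldehyde dehydrogenase (2.15 ± 0.286 to 4.18 ± 0.341 CPM, 0.96, SE 0.12, edgeR adjusted p = 0.00241), and Gstp1, a glutathione transferase (42.4 ± 1.68 to 54.3 ± 1.76 CPM, 0.36, SE 0.046, adjusted p = 0.00288). The expected counts of Gpx2 and Gstp1 were not whole in the 6 knockdown libraries, so reads were shared with other genes.

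The upward calls of Aldh3a1 and Gstp1 held under all 10 alternatives and with each library left out. Abcc5 and Blvrb kept their call in 1 of the 6 fits with a library left out, the one without CTR KD replicate 2, with values from -0.24 to -0.18 for Abcc5 and from -0.27 to -0.21 for Blvrb over these fits. Gpx2 lost its call without CTR KD replicate 3 (-0.56) or YAP KD replicates 2 or 3 (-0.49 and -0.52). On overexpression none of these 5 was called, and their log2 fold changes were -0.0077 for Blvrb, -0.07 for Aldh3a1, 0.01 for Gstp1, 0.07 for Abcc5 and 0.12 for Gpx2.

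**Figure D5:**
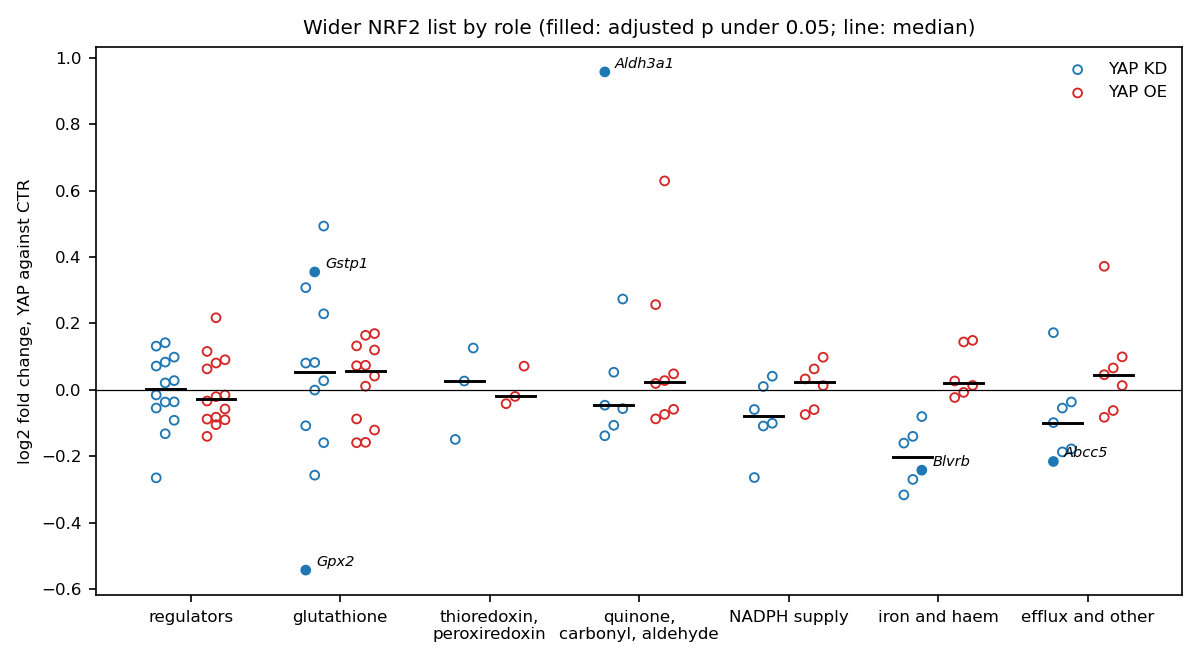
Log2 fold changes of the tested genes of the wider NRF2 list (y axis) by role, on silencing (blue, 55 genes) and on overexpression (red, 56 genes), with a line at each median and filled points for an edgeR adjusted p under 0.05. The 5 filled points all belong to silencing, 2 above 0 (Aldh3a1, Gstp1) and 3 under 0 (Abcc5, Blvrb, Gpx2).

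By role, the 6 genes of iron and haem handling on the wider list stood lowest on silencing. Hmox1 has the same role but is a member and is not among the 6. Its value was -0.04 (SE 0.056), with overlapping groups. All 6 (Fth1, Ftl1, Blvrb, Fech, Slc48a1 and Slc40a1) had negative values with a median of -0.20 against 0.0058 over all genes. Of these, 5 had an unadjusted edgeR p under 0.05, against 19.6% of all genes, but only Blvrb was called, where 2.78% of all genes were called lower. Ferritin light chain, Ftl1, went from 1354 to 1228 CPM (a change of -0.14 in log2, SE 0.06, edgeR adjusted p = 0.23), the iron exporter Slc40a1 from 5.88 to 4.71 CPM (-0.32, SE 0.12, adjusted p = 0.168) and the haem transporter Slc48a1 from 7.63 to 6.32 CPM (-0.27, SE 0.082, adjusted p = 0.1). The median of the 6 genes on overexpression was 0.02. Expected counts were not whole for Ftl1 in the 6 knockdown libraries and for Gstm2 in 2 of them, so reads were shared with other genes. The 12 tested genes of glutathione use had a median of 0.05 and went in both directions, with Gstm2 (-0.26, edgeR adjusted p = 0.0548) and Gsta4 (-0.16, adjusted p = 0.0737) below 0 beside Gstp1 above it. The 14 regulators, which include the NRF2 partners Mafg, Maff and Mafk, the competitor Bach1 and Cul3, had a median of 0.0027. On silencing edgeR called none of them, where 5.49% of all genes were called, and 1 (Cul3, 0.13) had an unadjusted p under 0.05, against 19.6%. DESeq2 and limma-voom called none of the 14 either. The medians of the other roles were 0.03 for 3 thioredoxin and peroxiredoxin genes, -0.05 for 7 quinone, carbonyl and aldehyde enzymes, -0.08 for 6 enzymes of NADPH supply and -0.10 for 7 efflux and other genes.

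On overexpression edgeR called 0 of the 56 tested genes of the wider list and 6 had an unadjusted p under 0.05, against 2.13% and 13.1% of all genes. limma-voom called 0 and DESeq2 called 1, Gsr, the glutathione reductase, which went from 75.1 ± 1.13 to 67.3 ± 3.02 CPM (a change of -0.16 in log2, SE 0.041, edgeR adjusted p = 0.0604). The median was 0.02. Over both experiments 11 of the 55 genes tested in both had negative values in both, where 19.5% of all genes did. None were called lower in both by edgeR.

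Antioxidant enzymes that are not counted among the core NRF2 targets were read for comparison. Of 11 tested, edgeR called 2 on silencing, where it called 5.49% of all genes, and 0 on overexpression, where it called 2.13%. On overexpression 1 of them (Sod2, -0.09) had an unadjusted p under 0.05, against 13.1% of all genes. Catalase, Cat, fell from 99.9 ± 2.54 to 87.3 ± 1.95 CPM (a change of -0.19 in log2, SE 0.04, edgeR adjusted p = 0.0236), and Gpx1, the main cytosolic glutathione peroxidase, rose from 159.2 ± 4.88 to 186.4 ± 12.5 CPM (0.23, SE 0.054, adjusted p = 0.0397). Both calls were lost in 4 of the 6 fits with a library left out, Cat without CTR KD replicate 3 or any YAP KD library (-0.21 to -0.18) and Gpx1 without CTR KD replicates 1 or 3 or YAP KD replicates 1 or 3 (0.19 to 0.23).

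Genes of the ATF4 pathway were included because Slc7a11 is also a target of ATF4. All 9 had negative values on silencing (median -0.11, against 0.0058 over all genes), and 2 were called lower by edgeR, where 2.78% of all genes were, the asparagine synthetase Asns (347.7 ± 9.07 to 302.9 ± 8.58 CPM, -0.20, SE 0.041, adjusted p = 0.0222) and Ddit3, which encodes CHOP (12.3 ± 0.938 to 9.31 ± 0.448 CPM, -0.40, SE 0.074, adjusted p = 0.0135). On overexpression 8 of the 9 had positive values (median 0.10, against -0.0025 over all genes) and 1, Ddit3, was called higher, where 1.66% of all genes were (12.1 ± 0.543 to 14.97 ± 1.53 CPM, 0.32, SE 0.072, edgeR adjusted p = 0.0312). Asns lost its call on silencing without CTR KD replicate 3 or YAP KD replicates 2 or 3 (-0.21, -0.18 and -0.19) and Ddit3 without CTR KD replicate 3 or YAP KD replicate 3 (-0.42 and -0.36), and Ddit3 on overexpression without any 1 CTR OE library or YAP OE replicate 3 (0.22 to 0.34). Slc7a11 itself, with -0.03 and 0.08, was called in neither experiment.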

How the data were processed

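Total RNA of 12 libraries was sequenced, 3 each for CTR KD, YAP KD, CTR OE and YAP OE. For alignment to mm10 the authors used STAR, and RSEM quantified the curated RefSeq transcripts. Versions and the strand setting are not given in the sources used here. The deposited expected counts are RSEM estimates per gene and are not normalized, and reads matching several genes are divided between them. The deposited TPM values are scaled per library by effective length, so small RNA content moves them. TPM served to order genes and to describe Cbr3 and Nqo1 by group, without a test, and FPKM was not used. The members and lists were chosen with earlier results of these data known.

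After rounding of expected counts to integers, edgeR 4.0.16 (R 4.3.3) with filterByExpr, TMM factors and the two-sided quasi-likelihood test was run on the 6 libraries of each experiment. The difference between the experiments was fitted over all 12 libraries. Benjamini-Hochberg adjustment ran over all genes kept (14606 on silencing, 14804 on overexpression, 15049 for the difference, 14744 for the control groups), and genes were called at an adjusted p under 0.05. Cbr3 received no test. DESeq2 1.42.0 and limma 3.58.1 served as alternatives. The code was tested on simulated counts. Genes named are the 10 members, genes of the wider, antioxidant and ATF4 lists by size of change and call, the 5 genes most like Cbr3 over genes averaging at least 50 counts, and cell markers. Chi-square divided by its degrees of freedom was 3.39 to 24.2 between replicates, beyond sampling noise for every pair. This value cannot tell biological from technical spread. Every library counted as a sample because the labels give independent biological replicates. The p-values weigh each group difference against the spread between these samples. Promoter windows were taken from RefSeq (GRCm38.p6), and a genome of the build of the files was not used here.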

Additional observations from a re-analysis of the deposited data

Results flagged for a closer look

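The response to silencing differed from the response to overexpression for 11 genes, counting the 9 members other than Cbr3 and the wider NRF2 list, by the edgeR test of the difference (log2 fold change on silencing minus that on overexpression, adjusted over all genes, of which 8.80% were called). Among the members this was Nfe2l2 (-0.186, edgeR adjusted p = 0.049). The difference was positive for Aldh3a1 (1.03, adjusted p = 0.00466) and Gstp1 (0.343, adjusted p = 0.00307). It was negative for the glutathione genes Gpx2 (-0.665, adjusted p = 0.0468), Gstm2 (-0.427, adjusted p = 0.0299) and Gsta4 (-0.202, adjusted p = 0.0414), and for the haem transporter Slc48a1 (-0.42, adjusted p = 0.0288). It was also negative for the efflux transporters Abcc5 (-0.283, adjusted p = 0.00381) and Abcc1 (-0.225, adjusted p = 0.0178), for Prdx6 (-0.222, adjusted p = 0.0211) and for Idh1 (-0.208, adjusted p = 0.0249). The calls of Abcc5, Aldh3a1 and Gstp1 held under all 9 alternatives and with each of the 12 libraries left out. With a library left out, Abcc1 kept its call in 11 of 12 fits, Prdx6 in 8, Gstm2 and Slc48a1 in 6 each, Idh1 in 5, Gpx2 in 4, and Nfe2l2 and Gsta4 in 3 each. With the replicate number as a block, the calls of Abcc5, Aldh3a1 and Gstp1 held and the other 8 were lost. With 3 libraries a group, single libraries were not tested for standing apart.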

How the results depend on the processing

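On silencing, the number of the 9 members called (1, Nqo1) became 2 with the 12 libraries in 1 fit, a minimum of 1 CPM, total counts or upper-quartile factors, Nfe2l2 being added each time, and it ranged from 0 to 2 with a library left out. On overexpression it went from 0 to 1 (Nqo1) without a filter on low counts. The number that differed between the experiments (1, Nfe2l2) became 0 with no filter, RLE factors or total counts, and ranged from 0 to 1 with a library left out. For the wider list, the 5 calls on silencing became 14 in the fit of 12 libraries and 8 with upper-quartile factors, ranging from 2 to 5 with a library left out. Its 0 calls on overexpression became 1 (Gsr) with DESeq2 or with no filter, and ranged from 0 to 1. Between the control groups, 1 call became 2 in the fit of 12 libraries (Gclc added) and ranged from 1 to 3, the latter without CTR KD replicate 2 (Gclc and Nfe2l2 added). Over all genes, the calls on silencing went from 802 to 1261 in the fit of 12 libraries and ranged from 298 to 1019 with a library left out, those on overexpression went from 316 to 556 with no filter and ranged from 154 to 327, and those between the control groups went from 108 to 200 in the fit of 12 libraries and to 170 with DESeq2, ranging from 20 to 420. The causes were not tested.

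Signs turned only for values near 0 that were called under no setting run. Keap1 on overexpression was -0.00728 with effective length as an offset and -0.0671 to 0.0547 with a library left out. With a library left out, the ranges were -0.00137 to 0.0402 for Gclm, -0.0102 to 0.0488 for Nfe2l2 and -0.0291 to 0.00534 for Txnrd1 on overexpression, -0.0749 to 0.0115 for Hmox1 and -0.212 to 0.0714 for Slc7a11 on silencing, -0.106 to 0.0119 for Keap1 between the experiments, and -0.00236 to 0.099 for Hmox1 and -0.00548 to 0.136 for Slc7a11 between the control groups.

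With the replicate number as a block, 0 of the 9 members were called on silencing and 0 differed between the experiments, the calls of the wider list on silencing became 2 (Aldh3a1 and Gstp1). The call of Nqo1 on silencing was lost (edgeR adjusted p = 0.106), as were those of Cat (0.133), Gpx1 (0.165), Asns (0.13) and Ddit3 (0.0587) on silencing and that of Ddit3 on overexpression (0.0593). Of the 11 differences between the experiments, those of Abcc5, Aldh3a1 and Gstp1 held and those of Nfe2l2 (0.142), Abcc1 (0.0553), Slc48a1 (0.0747), Idh1 (0.074), Prdx6 (0.0783), Gstm2 (0.105), Gsta4 (0.129) and Gpx2 (0.143) were lost, and the calls over all genes went from 802 to 193 on silencing, 316 to 280 on overexpression, 1325 to 784 for the difference and 108 to 37 between the control groups. Same-numbered control and YAP libraries did not deviate together (correlation of deviations -0.36, -0.235 and 0.0169 on silencing, 0.0386, 0.0656 and -0.0241 on overexpression). Differently numbered pairs lay between -0.164 and 0.368 on silencing and between -0.0947 and 0.0584 on overexpression. With 3 libraries a group, these correlations cannot tell whether libraries were paired or shared a batch, and neither fit is preferred on this ground. Slc7a11, the member with the fewest counts (244.1 on average in the knockdown libraries), also had the largest SE of the members on silencing.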
